A study of Mus musculus with 6 samples.

Results

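The fibroblast growth factor (FGF) family was followed through 10 human genes of the deposited table, 5 ligands (FGF1, FGF2, FGF5, FGF7 and FGF18), the 4 receptor tyrosine kinases FGFR1 to FGFR4 and the receptor-like gene FGFRL1, out of 20323 gene rows. They were taken by symbol as ligands known in fibroblasts and as FGF receptors, and each symbol had a single row. The libraries came from a line that the labels name RFB and describe as kidney fibroblasts. All 6 samples had received TGF-β, the cytokine that drives fibroblasts toward a matrix-producing state. In 3 of them nothing else was named (titles NC) and in 3 the chemokine CXCL10 had been added, with a volume of 5 µl in the titles and no concentration or time. There was no group without TGF-β, so what TGF-β itself does to these genes was not measured. The labels call the organism mouse, while all 20323 rows carry human Ensembl identifiers and 0 match the mouse annotation, so levels are those on human gene models. The series text speaks of a SUV39H1 knockdown that no sample label names.

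FGFs are secreted proteins that bind a receptor tyrosine kinase together with heparan sulfate chains on the cell surface. The bound receptor phosphorylates the adaptor FRS2, which passes the signal to RAS and the ERK kinases, and ERK activity in turn raises transcripts of its own brakes, among them the Sprouty proteins and the DUSP phosphatases. In the kidney FGF2 is a growth factor for fibroblasts, and FGF7 is made by mesenchymal cells and acts on neighbouring epithelium. The question the libraries address is what CXCL10 does in cells that also receive TGF-β.

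Total counts ran from 12838106 to 15587409 per library, so that 3 counts, the limit that a count of 0 allows, stood for 0.192 to 0.234 CPM (counts scaled to library size), for counting error only. Replicate 1 stood apart in both groups. On the first principal component (48.4% of the variance) TGF-β replicate 1 scored 5.54, the other TGF-β libraries -28.3 and -29.5, and the CXCL10 libraries 32.8, 9.78 and 9.67. All 11 fibroblast markers were measured in the test, with a summed level of 52997 to 60458 CPM with TGF-β and 50641 to 54953 CPM with CXCL10, mostly COL1A1. In edgeR with same-numbered libraries paired, 2 of them (THY1 and VIM) rose and 3 (COL1A1, DCN and LUM) fell. The 5 myofibroblast markers summed to 3259 to 3342 CPM and 2985 to 3437 CPM, and 4 were tested. With same-numbered libraries paired in edgeR, ACTA2 (-0.43, adjusted p = 8.6e-05) and CNN1 (-0.34, 0.00238) fell, CCN2 (0.82, 7.45e-05) rose and TAGLN (0.00, 0.998) was not called, and without pairing none of the 4 passed. The fifth, POSTN, was at or under 0.375 CPM. Of 12 kidney epithelial markers 3 passed the count filter, with sums of 21.2 to 22.8 CPM and 19.5 to 21.4 CPM, and PAX2, LRP2, SLC34A1, UMOD, AQP2 and CDH16 had 0 counts in every library. Of those tested CDH1, at or under 3.68 CPM, fell with the pairing (-1.89, adjusted p = 0.00898) but did not pass without it (0.176). PAX8 and AQP1 were not called. Endothelial markers summed to 50.6 to 52.1 CPM and 48.4 to 52.6 CPM, nearly all of it TEK, and leukocyte markers to 42.5 to 48.0 CPM and 42.4 to 48.5 CPM, mostly CD68.

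Per length of transcript, one ligand and one receptor made up most of the FGF transcripts. FGFR1, the receptor usual in mesenchymal cells, had the highest deposited FPKM (fragments per kilobase of transcript, scaled to library size) of the receptors, at 72.4, 84.1 and 80.6 in TGF-β replicates 1 to 3 and 70.5, 74.2 and 81.3 in the CXCL10 replicates. It held 96.8% to 97.9% of the summed FPKM of the 4 receptor kinases in each library. FGF2, a ligand that leaves the cell without a signal peptide, stood at 61.8, 60.9 and 68.0 FPKM with TGF-β and 84.9, 72.5 and 70.4 FPKM with CXCL10. It held 85.5% to 91.5% of the summed FPKM of the 5 ligands. With TGF-β each FGFR1 value was above each FGF2 value, and with CXCL10 the ranges of both genes overlapped.

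Below FGFR1 the receptors fell in a clear order. FGFRL1, a membrane protein that binds FGFs but lacks the kinase domain, came next at 10.8 ± 0.853 FPKM with TGF-β and 9.19 ± 0.847 FPKM with CXCL10 (SD, n = 3 per group, as for all following means). FGFR4, a receptor best known for hormonal FGF signalling in the liver, followed at 1.96 ± 0.409 and 1.75 ± 0.297 FPKM. FGFR3 stood at 0.247 ± 0.0241 and 0.296 ± 0.0924 FPKM. FGFR2, whose epithelial isoform is the receptor of FGF7, was listed at 0, 0.128 and 0.240 FPKM with TGF-β and 0, 0.046 and 0.045 FPKM with CXCL10. The last pair of this order overlapped, since the highest FGFR2 value lay above the lowest FGFR3 value of 0.216 FPKM, while all other neighbours were apart in all 6 libraries.

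Among the ligands FGF7 came second, at 6.40 ± 1.64 FPKM with TGF-β and 7.03 ± 0.622 FPKM with CXCL10. FGF1, which can bind every FGF receptor, stood at 3.38 ± 1.50 and 1.84 ± 0.474 FPKM. Their ranges overlapped, since FGF1 in TGF-β replicate 2 (5.10 FPKM) was above FGF7 in the same library (4.53 FPKM). FGF18, a ligand of skeletal and lung mesenchyme, reached at most 0.161 FPKM. FGF5 was without a count throughout, that is, at 0 in each of the 6 libraries, and so below 0.192 to 0.234 CPM.

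**Figure D1:**
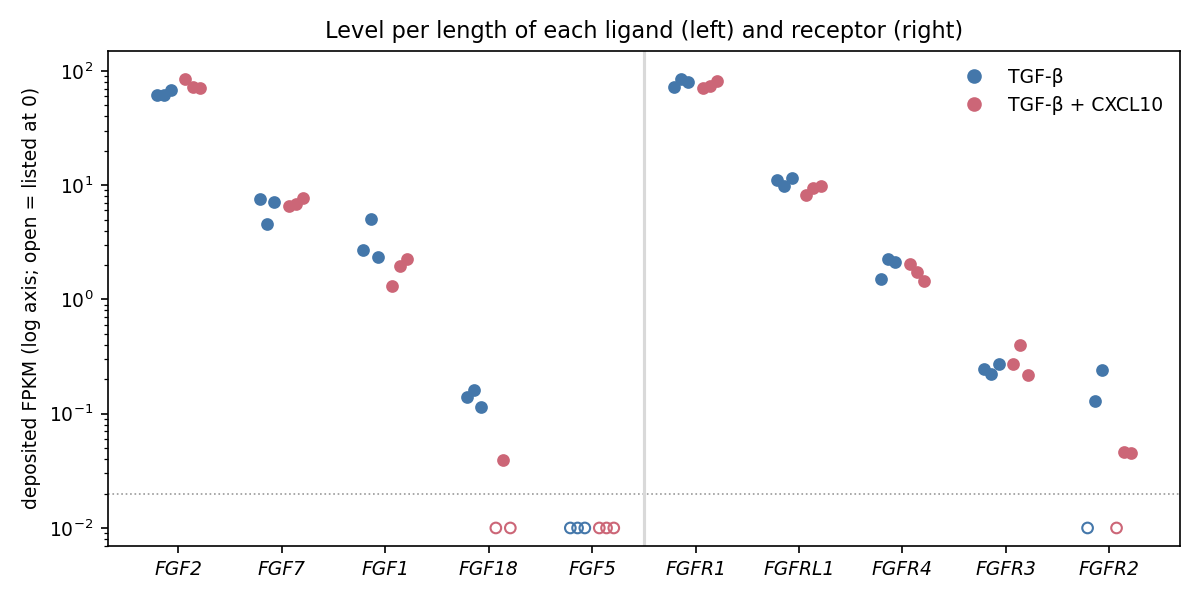
Deposited FPKM of each ligand and receptor in each of the 6 libraries, on a log axis, with values listed at 0 drawn as open circles under the dotted line. FGF2 and FGFR1 lie near each other at the top, between 60.9 and 84.9 FPKM, and FGF5, FGF18, FGFR2 and FGFR3 lie at or below 0.397 FPKM.

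Changes with CXCL10 were tested on the counts with edgeR's quasi-likelihood test, fitted to all 11970 genes that passed a filter on low counts and adjusted over all of them. Of the members 7 passed the filter (FGF1, FGF2, FGF7, FGFR1, FGFR3, FGFR4 and FGFRL1) and 3 did not (FGF5, FGF18 and FGFR2). With same-numbered libraries paired in the model (the replicate block), FGF2 and FGF7 rose at an adjusted p under 0.05 and the other 5 were not called. That is 28.6% of the tested members, beside 17.7% of all tested genes called in either direction (9.71% higher and 8.04% lower). With library totals as the only scaling, calls over all genes went from 1162 higher and 962 lower to 877 higher and 1359 lower, and FGF2 and FGF7 still passed (adjusted p = 0.0225 and 0.0349). In bulk libraries fewer cells of a type and less RNA per cell cannot be told apart. Without the pairing, which was the principal fit, 0 members and 0% of all genes passed, with a smallest adjusted p of 0.161. In that fit 2 members (FGF2 and FGF7) and 2449 genes had an unadjusted p under 0.05. DESeq2 without pairing called 0 members and 2.8% of all genes, with adjusted p values of 0.0930 for FGF2 and 0.168 for FGF7. The tested members had a median log2 change of 0.06 with the pairing, and all tested genes one of -0.01.

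FGF2 (ENSG00000138685) was measured at 368, 357 and 383 scaled CPM in the 3 TGF-β libraries and at 492, 419 and 408 scaled CPM with CXCL10, in replicate order. Every CXCL10 library was above every TGF-β library, and CXCL10 replicate 1 was the highest of the 6. The means were 369 ± 13.5 and 440 ± 45.5 scaled CPM, and the log2 change was 0.25 in both fits. Its standard error was 0.06 and its adjusted p 0.00996 with the pairing, against 0.08 and 0.161 without it. The pairs differed by 0.42, 0.23 and 0.09 (log2), so that pair 1 was the widest. Without both libraries of replicate 1 the paired change shrank to 0.16 (adjusted p = 0.00127). That fit had few libraries left to estimate the spread from, and it called 1533 of 12044 genes higher and 1313 lower. Without CXCL10 replicate 1 alone the unpaired change was also 0.16 (adjusted p = 0.452). DESeq2 with the pairing gave 0.25 (adjusted p = 0.00540), in a fit that called 5.71% of all genes higher. The paired call was lost in 2 of 9 alternatives that keep the pairing (listed below). These were limma-trend on log2(FPKM + 1) (0.25, adjusted p = 0.123) and on log2(FPKM + 0.1) (0.25, adjusted p = 0.125). In the authors' deposited table the FGF2 adjusted p was 0.115. NUDT6, a gene that lies antisense to FGF2, had between 5 and 70 counts per library, beside 5102 to 6995 counts for FGF2. Whether counting used strand is not given in the sources used here, so reads from the stretch where both genes overlap cannot be told apart.

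FGF7 (ENSG00000140285), the keratinocyte growth factor, was measured at 21.5, 17.4 and 18.8 scaled CPM with TGF-β and at 30.0, 21.7 and 23.2 scaled CPM with CXCL10. The groups did not overlap, but TGF-β replicate 1 lay only just under CXCL10 replicate 2. The means were 19.2 ± 2.06 and 24.9 ± 4.39 scaled CPM, and the log2 change in the paired fit was 0.37 (SE 0.10, adjusted p = 0.0193). Without the pairing it was 0.38 (SE 0.14, adjusted p = 0.190). The pairs differed by 0.48, 0.32 and 0.30 (log2), all in the same direction. The call was lost in 5 of 9 alternatives that keep the pairing (listed below). It was lost with DESeq2 (adjusted p = 0.124), without the libraries of replicate 1 (0.0713) and without those of replicate 3 (0.0569), with changes of 0.37, 0.31 and 0.41. It was also lost with limma-trend on log2(FPKM + 1) (0.14, adjusted p = 0.616) and on log2(FPKM + 0.1) (0.16, adjusted p = 0.606). Without CXCL10 replicate 1 alone the unpaired change was 0.225 (adjusted p = 0.540). FGF7 was higher in replicate 1 than in the mean of replicates 2 and 3 by 0.25 with TGF-β and by 0.41 with CXCL10 (log2), which is about the size of the change with CXCL10.

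These were the tested members whose groups did not overlap, 2 higher and 0 lower, where 11.1% of all tested genes were higher and 11.2% lower without overlap. When TGF-β replicate 1 alone was dropped from the unpaired fit, FGF2 (0.25, adjusted p = 0.0454) and FGF7 (0.47, adjusted p = 0.0444) both passed, in a fit that called 10.7% of all genes higher. Leaving out any other single library gave 0 member calls, in fits that called 0 of all tested genes in either direction.

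FGF1 (ENSG00000113578) was measured at 6.97, 6.48 and 6.84 scaled CPM with TGF-β and at 4.85, 6.95 and 4.72 scaled CPM with CXCL10. CXCL10 replicate 2 lay among the TGF-β libraries while the other CXCL10 libraries were lower. The log2 difference in the paired fit was -0.31 (95% interval -0.74 to 0.12, adjusted p = 0.333), and pair 2 went the other way from pairs 1 and 3 (0.10 against -0.51 and -0.52).

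**Figure D2:**
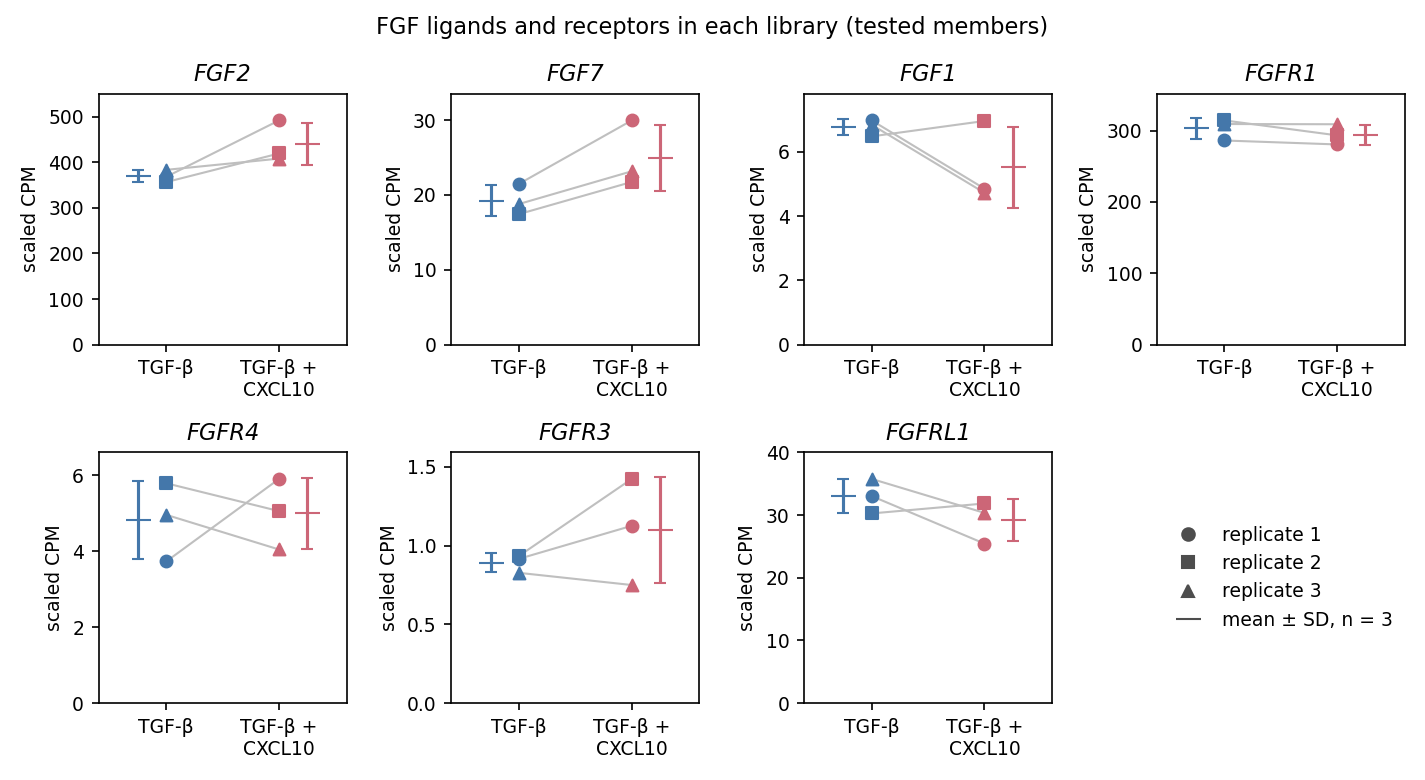
Scaled CPM of the 7 tested members in each library, with same-numbered libraries joined by grey lines and the mean ± SD (n = 3) beside each group; every axis starts at 0. FGF2 and FGF7 are higher with CXCL10 in all 3 pairs, and the groups of the other 5 genes overlap.

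The receptors that were tested passed in neither fit. FGFR1 (ENSG00000077782) was measured at 286, 314 and 309 scaled CPM with TGF-β and at 281, 293 and 309 scaled CPM with CXCL10. The groups overlapped widely, and replicate 1 was the lowest library of each. Its log2 difference was -0.04 in both fits, with a 95% interval of -0.15 to 0.06 in the paired one (adjusted p = 0.588), the narrowest interval among the members. FGFRL1 (ENSG00000127418) was measured at 33.0, 30.3 and 35.8 scaled CPM and at 25.5, 31.8 and 30.4 scaled CPM. CXCL10 replicate 1 was the lowest of the 6, and the remaining CXCL10 libraries lay within the TGF-β range. Its paired difference was -0.18 (95% interval -0.39 to 0.03, adjusted p = 0.240).

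FGFR4 (ENSG00000160867) had 53, 93 and 66 counts with TGF-β and 84, 64 and 54 with CXCL10. The pairs went in different directions, 0.64 in pair 1 and -0.19 and -0.28 in pairs 2 and 3 (log2). The paired difference of 0.06 had a 95% interval of -0.46 to 0.57, and without replicate 1 it was -0.24 (adjusted p = 0.613). FGFR3 (ENSG00000068078) had 13, 15 and 11 counts with TGF-β and 16, 18 and 10 with CXCL10, and its interval of -0.69 to 1.25 around 0.28 includes changes of more than 2-fold upward.

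**Figure D3:**
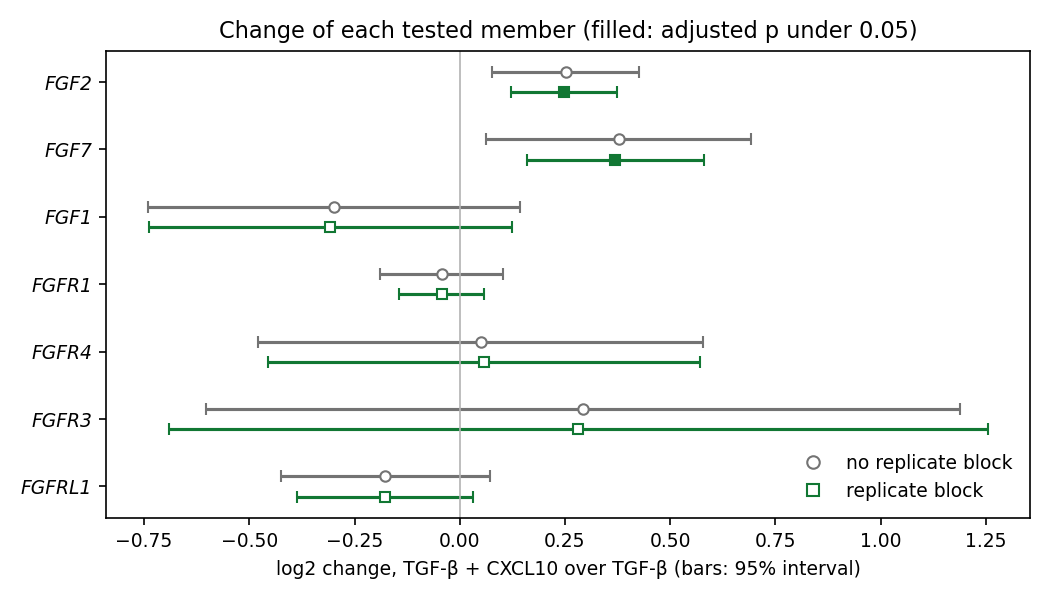
Log2 change of each tested member with its 95% interval, without the replicate block (grey circles) and with it (green squares), filled where the adjusted p was under 0.05. Filled points are FGF2 (0.25) and FGF7 (0.37) in the fit with the block, and the interval is widest for FGFR3 and narrowest for FGFR1.

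The members below the filter had few counts. FGF18 (ENSG00000156427) had 4, 5 and 3 counts with TGF-β and 0, 1 and 0 with CXCL10. The groups did not overlap, and the ratio of the summed counts (1 over 12, each scaled to library size) was 0.0875, with an exact 95% interval of 0.00205 to 0.592 for counting error only. FGFR2 (ENSG00000066468) had 0, 7 and 6 counts with TGF-β and 0, 1 and 2 with CXCL10. Here both libraries of replicate 1 had none, and the ratio of the sums was 0.242 (0.0443 to 0.882). When edgeR was run without the filter neither gene passed, with paired adjusted p values of 0.335 for FGF18 and 0.590 for FGFR2.

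Of the 18 secreted FGF ligands in the table, FGF1, FGF2 and FGF7 were the 3 that passed the filter. Of the remaining 15, 9 had 0 counts in all libraries, among them FGF10, the mesenchymal ligand most like FGF7, and FGF21, the metabolic hormone. The highest count of any of the 15 was 6, for FGF22, a ligand of the FGF7 subfamily. Of the 4 FGF homologous factors, which stay inside the cell and bind sodium channels, FGF14 (25.5 ± 3.46 and 29.3 ± 0.381 scaled CPM) and FGF11 (5.70 ± 1.14 and 4.05 ± 0.667 scaled CPM) were tested and passed neither fit. Their paired differences were 0.21 (adjusted p = 0.168) and -0.49 (adjusted p = 0.133).

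Of 20 genes for co-receptors and FGF-binding proteins 12 were tested, and in the paired fit 2 fell and 0 rose, with a median log2 change of -0.06. These 2 are 16.7% of the list, near the 17.7% called over all genes. Calls below were rerun in 9 alternatives that keep the pairing: DESeq2, 3 other settings of edgeR, limma on FPKM with each of 2 pseudocounts, and leaving out each pair. GPC1, a heparan sulfate glypican that binds FGF2, was measured at 217, 284 and 290 scaled CPM with TGF-β and 190, 236 and 210 with CXCL10, a change of -0.31 (adjusted p = 0.00208). The groups overlapped at TGF-β replicate 1, and the call was lost in 1 of the 9 alternatives, without replicate 3 (adjusted p = 0.0761). The syndecan SDC2 changed by -0.32 (adjusted p = 0.0156), with no overlap, and lost the call in 5 of 9, among them DESeq2 (0.108) and leaving out replicate 2 (0.0946) or replicate 3 (0.0920). HSPG2, the matrix proteoglycan perlecan, at 1140 ± 97.9 and 1070 ± 95.4 scaled CPM, was not called (adjusted p = 0.150), nor was FLRT1 (adjusted p = 0.335). KLB, the co-receptor of the hormonal ligands, had at most 5 counts in any library.

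Genes that build and modify heparan sulfate went both ways. Of 21, 13 were tested, and 3 rose and 2 fell with the pairing (38.5% called, beside 17.7% of all tested genes, median 0.03). HS3ST3A1, a glucosaminyl 3-O-sulfotransferase, went from 17.5 ± 7.57 to 33.4 ± 4.68 scaled CPM (0.97, SE 0.14, adjusted p = 0.000314), and it was called in all 9 alternatives. The chain polymerase gene EXT1 rose by 0.22 (adjusted p = 0.00911), and the call was lost in 4 of 9, among them leaving out replicate 2 (0.0785) or replicate 3 (0.139). Its relative EXTL3 rose by 0.20 (adjusted p = 0.0378), and the call was lost in 6 of 9, among them DESeq2 (0.175), library totals (0.0982) and leaving out replicate 2 (0.0662) or replicate 3 (0.225). The N-sulfotransferase NDST1 (-0.17, adjusted p = 0.0257, lost in 4 of 9) and EXTL1 (-0.96, adjusted p = 0.0483, lost in 5 of 9) fell.

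Among the proteins that carry the signal inward, 19 adaptors were tested, of which 1 rose and 1 fell (10.5% called), with a median of -0.02. The gene that rose was SHC1 (0.16, adjusted p = 0.0290), and its call was lost in 6 of the 9 alternatives. The SHC1 change was -0.03 on the FPKM scale (adjusted p = 0.800 with the pairing). FRS2, the docking protein of the FGF receptors, stood at 49.9 ± 4.07 and 43.2 ± 2.93 scaled CPM and was not called (-0.21, adjusted p = 0.115), and neither was GAB2 (0.23, adjusted p = 0.122). In the RAS-ERK cascade 1 of 15 genes rose and 2 fell (20% called), with a median of -0.06. Over all tested genes 17.7% were called, so the share of the adaptors was under that and the share of the cascade near it. MAPK3, an ERK kinase, rose by 0.22 (adjusted p = 0.0302), the scaffold KSR1 fell by 0.27 (0.0180) and the downstream kinase RPS6KA1 fell by 0.69 (0.0117). These calls were lost in 6, 4 and 5 of the 9 alternatives, each with DESeq2 (adjusted p = 0.152, 0.0924 and 0.0668), and that of MAPK3 also with library totals (0.0724). The RAS gene NRAS was not called (0.13, adjusted p = 0.0909).

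Feedback genes and transcripts that respond to ERK were higher more often than they were lower. Of 15 feedback inhibitors 13 were tested, 8 rose and 1 fell (69.2% called), with a median change of 0.64. Over all tested genes 17.7% were called, 9.71% higher and 8.04% lower. SPRY2, a Sprouty inhibitor, was measured at 29.0, 17.1 and 18.6 scaled CPM with TGF-β and 56.2, 35.3 and 35.1 with CXCL10, with no overlap and a change of 0.97 (SE 0.08, adjusted p = 9.91e-06). SPRY4 rose by 1.21, the phosphatase DUSP4 by 1.05 and LRIG3, a transmembrane regulator of growth factor receptors, by 0.64. In scaled CPM, TGF-β replicate 1 and the lowest CXCL10 library stood at 11.8 and 15.4 for SPRY4. For DUSP4 these were 24.9 and 27.6, and for LRIG3 29.4 and 34.0. The calls of SPRY2, SPRY4 and DUSP4 were kept in all 9 alternatives, and that of LRIG3 was lost in the 2 on FPKM (adjusted p = 0.0718 and 0.0674). The gene of this list that fell was RNF41 (-0.25, adjusted p = 0.0417, lost in 5 of 9). Of 15 ERK-responsive transcripts 8 rose and 1 fell (60% called, beside the same 17.7%), with a median of 0.31. The cyclin CCND1 (1.28), PHLDA1 (0.77), EGR2 (0.69) and MYC (0.63) rose, in all 9 alternatives as well, which all keep the pairing. The one that fell was EGR1 (-1.10, adjusted p = 0.00703, lost in 3 of 9). CCND1 was at 247, 85.1 and 80.6 scaled CPM with TGF-β and 388, 252 and 262 with CXCL10. Its TGF-β replicate 1 was above the mean of the other TGF-β libraries by 1.58 (log2), more than its change. For EGR2, TGF-β replicate 1 and the lowest CXCL10 library stood at 65.1 and 68.8 scaled CPM. For MYC these were 37.1 and 41.0, and for PHLDA1 62.3 and 71.4. The genes of both lists also answer many receptors other than those of FGF.

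Without the pairing edgeR called 0 genes of these 8 lists (adjusted p between 0.161 and 0.973). DESeq2 without pairing called 4 feedback inhibitors higher, in a fit that called 172 of all 11970 tested genes higher and 163 lower. It also called genes of other lists. Among these, HS3ST3A1, EGR2, MYC and PHLDA1 were higher and RPS6KA1 was lower. Replicate 1 of each group moved with the feedback and ERK-responsive lists. Within the TGF-β group the feedback list was higher in replicate 1 than in the others by a median of 0.32 (log2) and the ERK-responsive list by 0.29. In the CXCL10 group these values were 0.40 and 0.26. For FGF2 replicate 1 differed from the others by -0.01 in the TGF-β group and by 0.25 in the CXCL10 group. The part of replicate 1 in the list changes was not tested. Without both of its libraries the paired fit called 8 feedback inhibitors higher, and over all genes it called 1533 of 12044 higher, against 1162 of 11970 with all libraries.

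**Figure D4:**
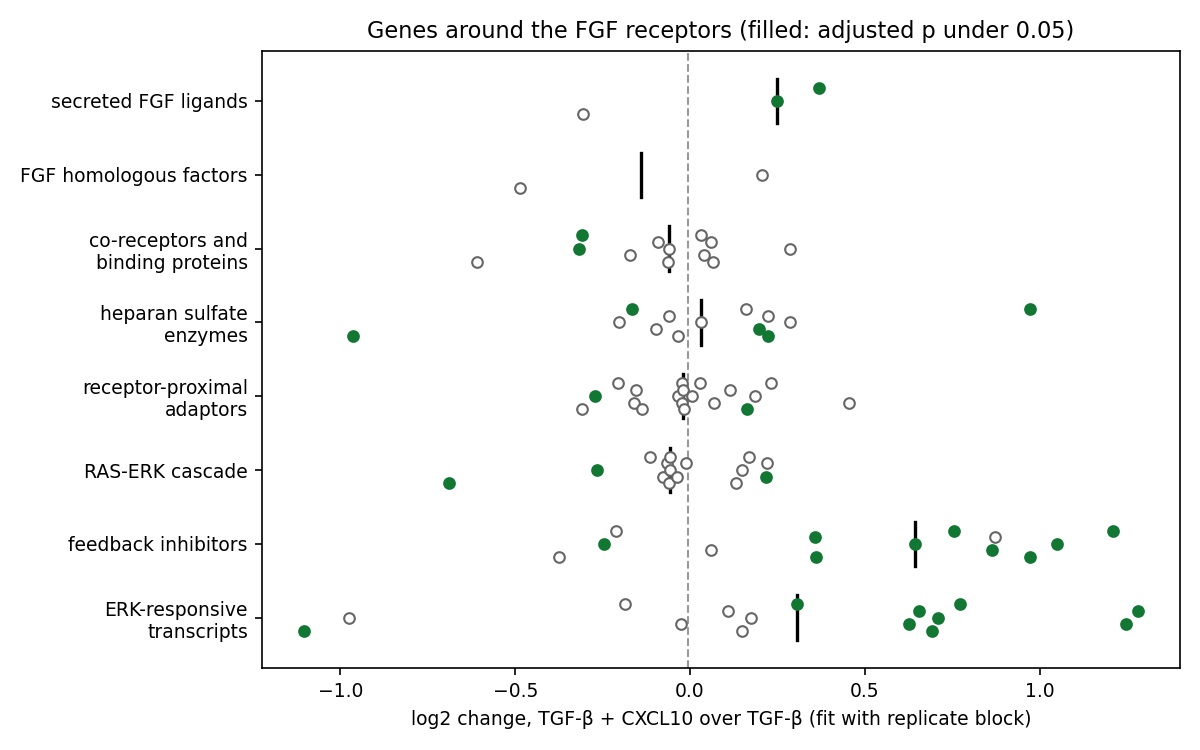
Log2 change with CXCL10 in the fit with the replicate block for each tested gene of 8 lists around the FGF receptors, filled where the adjusted p was under 0.05, with the list median as a black bar and the median of all tested genes as a dashed line. The medians of the feedback inhibitors (0.64) and the ERK-responsive transcripts (0.31) lie to the right, and those of the adaptors (-0.02) and the RAS-ERK cascade (-0.06) near the dashed line.

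By the root mean square difference of centred log2 CPM over the 6 libraries, the genes with the pattern most like that of FGF2 were WLS (0.029), CHORDC1 (0.040) and ZEB1 (0.040). WLS, for example, was at 72.4, 70.3 and 72.7 scaled CPM with TGF-β and 92.0, 80.5 and 80.0 with CXCL10, so that CXCL10 replicate 1 was again the highest. Those most like FGFRL1, the receptor gene with the lowest p, were CINP (0.027), GAREM2 (0.037) and TGFBR3 (0.040).

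For FGF1 and FGF7 the counts and the deposited FPKM did not tell the same story. Count over FPKM and library total gives the length the FPKM was divided by, if the FPKM was computed from these counts and totals. How it was computed is not given in the sources used here. This implied length differed between libraries. For FGF1 it ran from 1.31 kb in TGF-β replicate 2 to 3.62 kb in CXCL10 replicate 1, and for FGF7 from 2.71 kb to 4.51 kb. For FGF2 it kept to 5.69 to 6.03 kb and for FGFR1 to 3.74 to 3.94 kb. On the log2(FPKM + 1) scale FGF7 differed by 0.14 (adjusted p = 0.616 with the pairing) in place of 0.37, its FPKM ranges overlapped, and FGF1 differed by -0.59 (adjusted p = 0.140) in place of -0.31. Whether these lengths stand for transcripts of either gene was not tested.

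**Figure D5:**
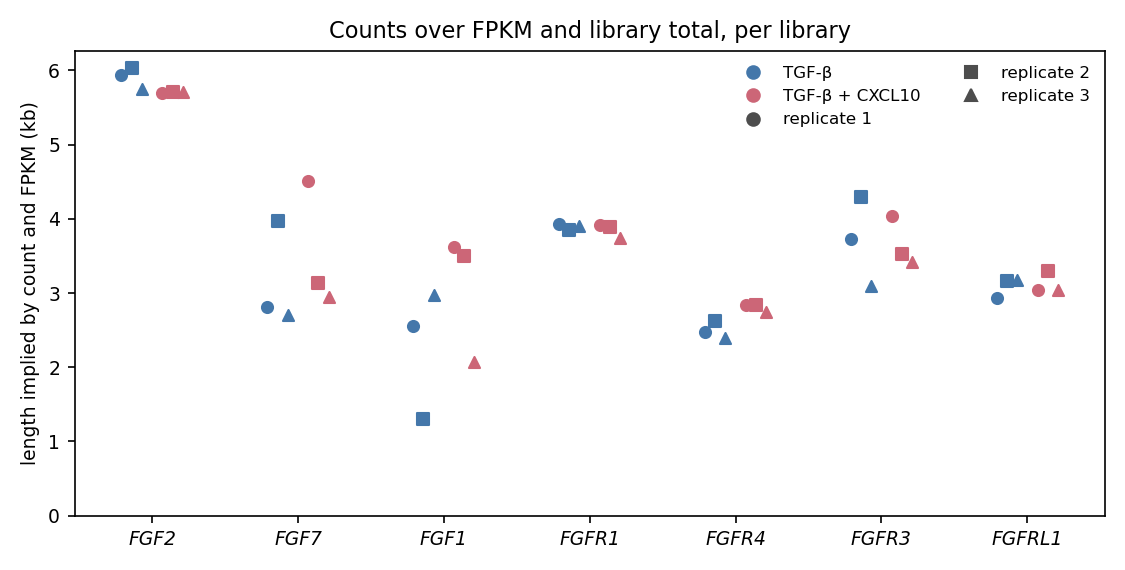
Length in kb implied by count, FPKM and total count, for the 7 tested members in each library (marker shape gives the replicate). The 6 points of FGF2 and of FGFR1 lie close together, while those of FGF1 spread from 1.31 to 3.62 kb and those of FGF7 from 2.71 to 4.51 kb.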

How the data were processed

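RNA was isolated with an RNeasy kit and sequenced from SMARTer libraries (source: per the labels). GRCm38 and mm10 are the builds in the submitters' processing notes, although the gene rows are human. The sources used here do not give the aligner, the counter or the use of strand, and no coordinates or sequences were used. Per the file headers, the authors deposited raw counts and FPKM per gene and library, mean FPKM per group, the log2 ratio of these means, and a p-value with its adjusted form from a test that is not stated.

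The count test was edgeR 4.0.16 under R 4.3.3 (glmQLFit, TMM scaling, genes kept by filterByExpr at minimum count 10 and total 15, Benjamini-Hochberg threshold of 0.05). Scaled CPM uses the TMM library sizes, and log2 CPM a prior count of 2. SE is the log2 change over the root of F. DESeq2 1.42.0 and limma 3.58.1 (limma-trend on FPKM with a pseudocount of 1) were alternatives. The edgeR and DESeq2 fits were tested on simulated data. The simulation held no replicate effect, so it cannot decide between the fits with and without pairing. The fit without a replicate block was set as the principal one, and it called 0 of 11970 genes. Libraries that share a number deviated together from the group means (r = 0.330, 0.121 and 0.163), all over the 0.1 set for pairing. The fit with the block is therefore printed as an alternative. List counts, list medians and the words rose and fell come from that alternative, not from the principal fit. This pairing comes from the counts and is closest for replicate 1. TGF-β replicate 3 with CXCL10 replicate 2 (r = 0.0825) and TGF-β replicate 2 with CXCL10 replicate 3 (0.0803) also deviated together. For replicates 2 and 3 the pairing by number therefore rests on small differences in r. The labels do not say that replicates were separate cultures. P-values measure only the spread between these libraries, which may be technical. All pairs within a group differed by more than sampling noise (chi-square per degree of freedom of 2.79 to 17.4).

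Members, gene lists and tests were chosen with earlier results of these data known. Each member is given, and from each list the 4 tested genes with the lowest paired p, except 1 adaptor that is not reported here. FGF10, FGF21, FGF22, KLB, NUDT6, EXTL1, RNF41 and EGR1 were named outside that rule, after their values were seen. For symbols with several rows the row with the highest mean count was used.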

Additional observations from a re-analysis of the deposited data

How the results depend on the processing

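With no replicate block 0 members were called higher and 0 lower. With the replicate block 2 were called higher, likewise with RLE scaling, with library totals only or with no count filter beside it, and 1 with DESeq2 and the replicate block. With limma-trend on FPKM and the replicate block 0 were called higher at either pseudocount. Those fits called 337 (pseudocount 1) and 332 (0.1) of all 11970 tested genes higher. Leaving out libraries gave 0 to 2 called higher. In 20 alternatives 0 members were called lower. Of the 7 tested members, 6 kept their direction in all 20 alternatives. FGFR4, at 0.05 without the block, turned to -0.10 with limma-trend on log2(FPKM + 1), with or without the block, and to -0.15 with a pseudocount of 0.1, and ranged from -0.24 to 0.23 when libraries were left out. Of the 26 other genes that the naming rule selects SHC1 turned, to -0.03 with both FPKM pseudocounts (-0.0345 and -0.0346). The cause was not tested. FGF2 ranged from 0.16 to 0.33 and FGF7 from 0.14 to 0.47 over all alternatives, with adjusted p values from 0.000163 to 0.507 and from 0.00611 to 0.709. Counts of 0 to 18 limit what can be said of FGF18, FGFR2 and FGFR3.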

Other observations

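The spread of implied length seen for FGF1 was rare among genes averaging 5 CPM or more. FGF1, at 63 to 104 counts per library, lay near the lower edge of that set. Genes of like count were not compared. In the 9705 genes averaging 5 CPM or more that had an FPKM in every library, the largest implied length over the smallest had a median of 1.09. For FGF1 it was 2.76, and 0.536% of these genes had a larger ratio. For FGF7 it was 1.67, with 4.22% of genes above it, and for FGF2 1.06, with 59.4% above. Between group means, the log2 ratio of FPKM and that of unscaled CPM differed by more than 0.5 for 70 genes (0.721%). FGF1 was among them, at -0.88 by FPKM and -0.34 by CPM.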
